A study of Homo sapiens with 6 samples.

Results

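The genes described here are 10 regulators of WNT signalling, measured in all 6 samples of an expression array study. They are the R-spondins RSPO1, RSPO2 and RSPO3, their receptors LGR4 and LGR5, the secreted inhibitors SFRP1, SFRP2, DKK1 and DKK3, and the feedback target AXIN2. They were taken by symbol from a table of 31410 symbols, and all 10 were found, each as 1 row. The genes were chosen by their intensity differences between the cultures (H1 differentiation 2 against 1, and HUES8 against both), so those differences are given as a description with no test. The samples were human embryonic stem cells (hESCs) carried through a stepwise pancreatic protocol to stage 6, a mixed culture that holds insulin-expressing cells. Differentiations 1 and 2 came from the established hESC line H1 and differentiation 3 from the line HUES8, all grown on matrigel in mTeSR before differentiation. Each differentiation gave a live sample, extracted from fresh unfixed cells, and a processed sample, which was fixed, permeabilized, antibody stained and passed through the sorter with every cell collected. RNA was also extracted with different kits, RNAeasy for live and a modified RecoverAll procedure for processed samples, so that extraction and processing cannot be told apart. The live and processed samples of a differentiation are therefore portions of the same culture and not separate cultures, and HUES8 is represented by 1 differentiation, so that cell line and differentiation cannot be told apart.

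WNT proteins bind Frizzled receptors and LRP5 or LRP6 on the cell surface, which stops the destruction complex from degrading β-catenin and lets β-catenin act with TCF and LEF factors on target genes. R-spondins are secreted proteins that bind LGR receptors and the ubiquitin ligases ZNRF3 and RNF43, and by removing those ligases they keep Frizzled receptors on the membrane. SFRP proteins bind WNT ligands, DKK1 blocks the LRP co-receptors, and AXIN2 is both a scaffold of the destruction complex and a widely used target gene of the pathway. In the embryo, WNT signals pattern the gut tube and act between the pancreatic epithelium and the mesenchyme around it.

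Promoter sequences are shown for the pair of genes that stood apart between the H1 cultures, RSPO1 and RSPO3, and for the pair that stood apart in HUES8, DKK1 and SFRP2. Each is the 250 bases before the RefSeq start of the gene, written 5′ to 3′ on the gene's strand (build GRCh38.p14). Of the 10 genes, 5 had an entry in the promoter table used. Capitals mark CTTTGA or CTTTGT, core letters of the TCF and LEF motif, searched on both strands (TCAAAG or ACAAAG on the other).
RSPO1 (chr1:37634893-37635142, minus strand): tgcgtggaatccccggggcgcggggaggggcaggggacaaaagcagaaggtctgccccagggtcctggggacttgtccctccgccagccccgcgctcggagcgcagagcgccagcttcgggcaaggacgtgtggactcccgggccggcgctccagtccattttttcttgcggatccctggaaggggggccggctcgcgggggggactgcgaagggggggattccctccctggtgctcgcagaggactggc
RSPO3 (chr6:127118421-127118670, plus strand): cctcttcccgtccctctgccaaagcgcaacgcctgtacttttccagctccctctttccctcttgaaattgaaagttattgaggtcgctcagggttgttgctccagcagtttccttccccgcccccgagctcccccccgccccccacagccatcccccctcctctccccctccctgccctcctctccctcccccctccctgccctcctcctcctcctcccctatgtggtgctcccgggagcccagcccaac
DKK1 (chr10:52314031-52314280, plus strand): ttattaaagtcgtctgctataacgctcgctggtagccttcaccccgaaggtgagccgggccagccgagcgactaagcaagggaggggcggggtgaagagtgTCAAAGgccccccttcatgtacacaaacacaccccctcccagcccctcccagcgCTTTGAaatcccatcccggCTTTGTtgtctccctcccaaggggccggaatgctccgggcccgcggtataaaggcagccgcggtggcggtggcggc
SFRP2 (chr4:153789084-153789333, minus strand): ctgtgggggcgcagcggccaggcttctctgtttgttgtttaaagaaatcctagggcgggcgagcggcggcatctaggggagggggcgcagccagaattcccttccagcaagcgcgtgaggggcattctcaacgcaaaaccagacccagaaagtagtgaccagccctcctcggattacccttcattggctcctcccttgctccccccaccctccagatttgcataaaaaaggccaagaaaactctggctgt
The DKK1 window held 3 matches, whose first bases lay 149, 95 and 76 bases before the start, and the windows of RSPO1, RSPO3, SFRP2 and LGR4 held 0. Among 35116 promoters of the same length, 22.8% held at least 1 match and 0.58% held at least 3. A match is a stretch of letters and was not examined as a binding site.

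Values are background-subtracted, rank-invariant normalized intensities on a linear scale. Array medians lay between 22.5 and 27.4, and between 12297 and 12698 genes on each array were at 40 or more, the level used here as a floor. Genes at or above that floor on at least 3 of the 6 arrays were compared, 12653 in all, and 8 of the 10 WNT regulators were among them. RSPO2 reached it on 2 arrays and LGR5 on 0. Differences were taken between values of log2(intensity + 20). The added 20 makes changes of dim genes look smaller than they are. The spread given is that between the live and the processed sample. Hormone genes of the labelled cell type were bright, with INS, which encodes insulin, between 1898 and 5069, while the β-cell factor NKX6-1 lay under 40 on all 6 arrays.

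RSPO3 differed between all 3 cultures, with culture means that spanned 2.64 on the log2 scale. Its intensity was 114 in the live and 71.1 in the processed sample of H1 differentiation 1, 673 and 662 in H1 differentiation 2, and 209 and 146 in HUES8. H1 differentiation 2 was highest, HUES8 next and H1 differentiation 1 lowest, and the live and processed values of no culture overlapped those of another. On the log2 scale H1 differentiation 2 exceeded differentiation 1 by 2.37 in live and 2.90 in processed samples, 6.23-fold on average. HUES8 exceeded H1 differentiation 1 by 0.82 and fell below differentiation 2 by 3.53-fold, a log2 difference of -1.82.

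RSPO1, the other R-spondin with a clear signal, also separated the H1 cultures. Its intensity was 19.1 live and 25.3 processed in H1 differentiation 1, 201 and 272 in differentiation 2, and 180 and 124 in HUES8. Both samples of H1 differentiation 1 lay under the floor, so RSPO1 was at least 4.24-fold higher in differentiation 2 and at least 2.83-fold higher in HUES8, with the dim arrays set to 40. Differentiation 2 was above HUES8 in both kinds of sample, by 0.14 on the log2 scale in live and by 1.02 in processed samples (as HUES8 minus H1 differentiation 2, -0.14 and -1.02). The processed HUES8 sample was further from its live counterpart than the live samples of differentiation 2 and HUES8 were from each other, so their order in live samples was within that spread. HUES8 thus resembled H1 differentiation 2 more closely in RSPO1 (mean log2 difference -0.58) than in RSPO3, by value and without a test.

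RSPO2 was dim and followed another order. Its intensity was 39.5 live and 14.7 processed in H1 differentiation 1, 28.7 and 27.9 in differentiation 2, and 73.6 and 73.8 in HUES8. It reached the floor in HUES8 alone, at least 1.56-fold above either H1 culture with the dim arrays set to 40.

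**Figure D1:**
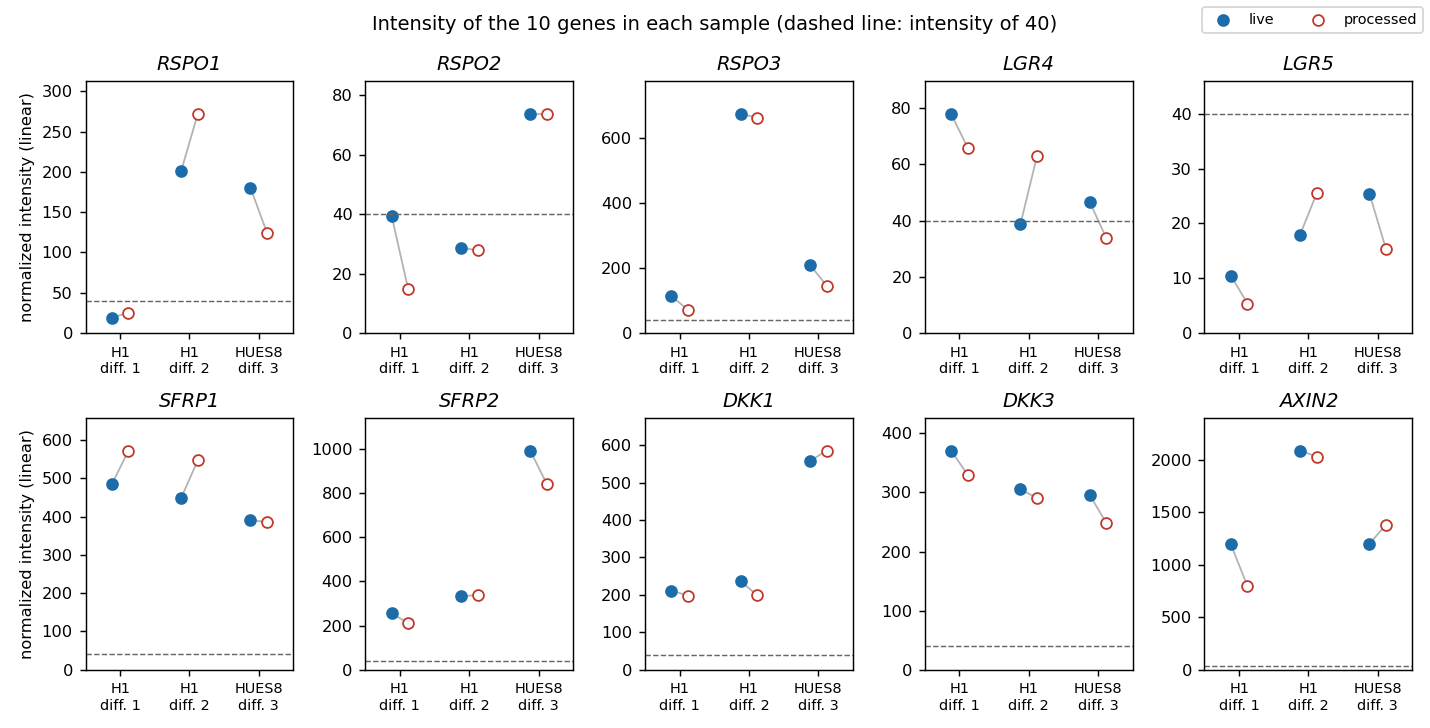
Normalized intensity (linear, from 0) of each of the 10 WNT regulators in the live (filled) and processed (open) sample of H1 differentiation 1, H1 differentiation 2 and HUES8 differentiation 3, with a grey line joining the samples of a culture and a dashed line at an intensity of 40. RSPO1 and RSPO3 are lowest in H1 differentiation 1, SFRP2 and DKK1 are highest in HUES8, and every LGR5 value lies under the dashed line.

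The R-spondin receptors were near the floor. LGR4, a broadly expressed receptor, had an intensity of 78.0 live and 66.0 processed in H1 differentiation 1, 38.7 and 63.1 in differentiation 2, and 46.6 and 33.8 in HUES8. Differentiation 1 was highest, and the samples of differentiation 2 and HUES8 overlapped. The difference between the H1 cultures was -0.74 in live samples and -0.05 in processed samples, so its size rested on the live pair. LGR5, known as a marker of stem cells in the intestine, ranged from 5.39 to 25.5, under the floor on every array, and no fold is given for it.

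Among the secreted inhibitors, SFRP2 was highest in HUES8. Its intensity was 255 live and 211 processed in H1 differentiation 1, 332 and 338 in differentiation 2, and 991 and 839 in HUES8. The cultures did not overlap, with HUES8 above H1 differentiation 2 and that above differentiation 1. HUES8 exceeded differentiation 1 by 3.70-fold and differentiation 2 by 2.63-fold. Between the H1 cultures SFRP2 differed by 0.36 in live and 0.63 in processed samples.

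DKK1 had the same highest culture. Its intensity was 211 live and 198 processed in H1 differentiation 1, 237 and 199 in differentiation 2, and 558 and 586 in HUES8. The H1 cultures overlapped, and HUES8 stood above differentiation 1 by 1.40 and above differentiation 2 by 1.32 on the log2 scale. Both samples of HUES8 were higher than all 4 H1 samples.

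SFRP1 and DKK3 varied little. SFRP1 lay between 386 and 572, with the H1 cultures overlapping and both HUES8 samples, 390 and 386, below them. HUES8 minus H1 came to -0.38. DKK3, a member of the Dickkopf family, was highest in H1 differentiation 1, at 371 live and 330 processed, against 306 and 290 in differentiation 2 and 296 and 248 in HUES8, and the last pair of cultures overlapped.

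AXIN2, the target gene, was highest in the same culture as RSPO3. Its intensity was 1196 live and 797 processed in H1 differentiation 1, 2090 and 2032 in differentiation 2, and 1201 and 1385 in HUES8. Differentiation 2 was above both other cultures, by 0.79 in live and 1.33 in processed samples over differentiation 1, 2.09-fold on average. It was 1.59-fold above HUES8. The live values of differentiation 1 and HUES8 were close together, with a log2 difference of 0.01, and their processed values 0.78 apart.

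Between the H1 cultures, RSPO1 and RSPO3 were at least 2-fold higher in differentiation 2 in both live and processed samples, and 0 of the 8 compared genes were 2-fold lower. Over all 12653 genes, 1.03% were 2-fold higher in both and 1.23% lower. The median difference of the 8 genes was 0.29, against -0.04 for all genes. Live and processed values of the H1 cultures did not overlap for 6 of the 8 genes, 4 higher and 2 lower in differentiation 2, where 59.4% of all genes did not overlap. All of these counts rest on the values that chose the genes.

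**Figure D2:**
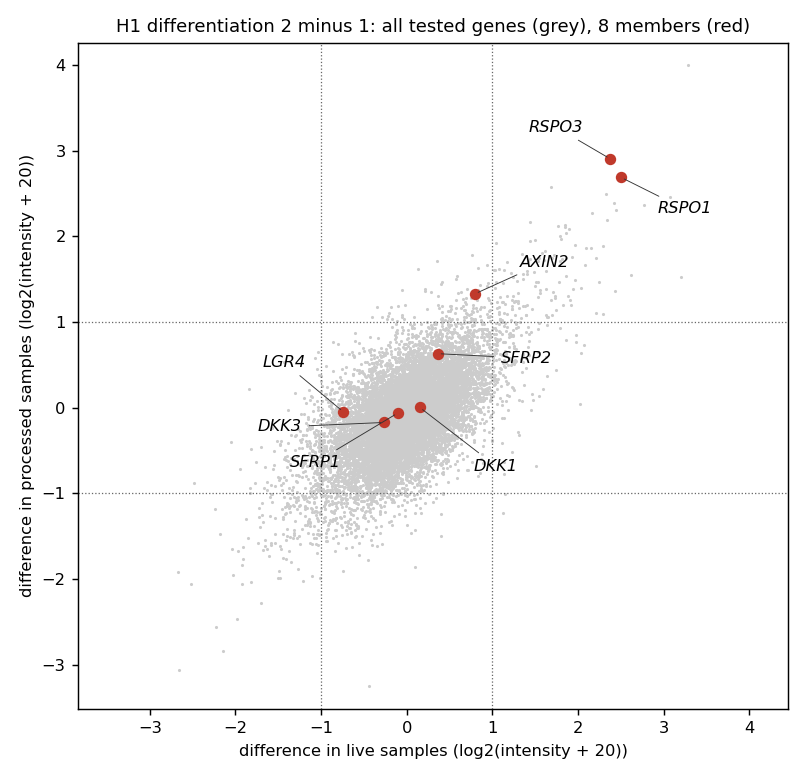
Difference between H1 differentiation 2 and 1 in live samples (x axis) against processed samples (y axis), on the log2(intensity + 20) scale, for the 12653 genes compared (grey) and 8 WNT regulators (red), with dotted lines at 2-fold. RSPO1 and RSPO3 lie at the upper right edge, AXIN2 lies past 2-fold in processed samples only, and the other 5 lie within 2-fold on both axes.

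In HUES8, SFRP2 and DKK1 were at least 2-fold higher than each H1 culture in live and in processed samples, and 0 of the 8 were 2-fold lower. The share over all genes was 0.759% higher and 1.61% lower. The median of the 8 genes was -0.19, against 0.02 for all genes. Samples of HUES8 and H1 differentiation 1 did not overlap for 8 of the 8 genes (64.4% of all genes) and those of HUES8 and differentiation 2 for 6 (60.1%). For RSPO1, RSPO3 and AXIN2 the comparison of HUES8 with H1 depended on the H1 culture, being positive against differentiation 1 and negative against differentiation 2. These differences were 0.82 and -1.82 for RSPO3 and 0.39 and -0.67 for AXIN2, and for RSPO1 at least 2.83-fold against differentiation 1 and -0.58 against differentiation 2.

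**Figure D3:**
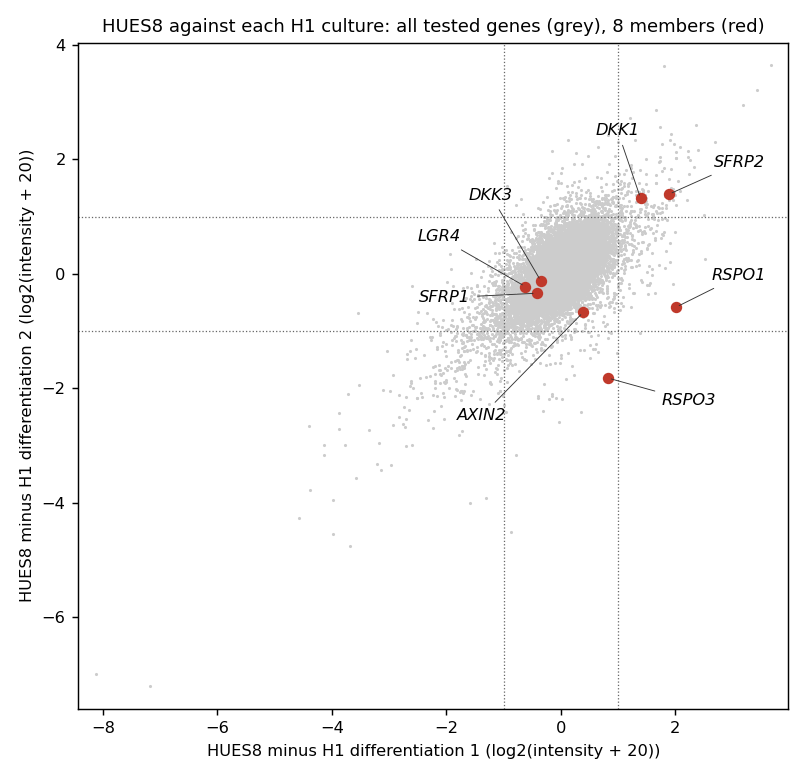
Difference between HUES8 and H1 differentiation 1 (x axis) against that between HUES8 and H1 differentiation 2 (y axis), each the mean over live and processed samples on the log2(intensity + 20) scale, for the 12653 genes compared (grey) and 8 WNT regulators (red). SFRP2 and DKK1 lie past the dotted 2-fold lines on both axes, while RSPO1, RSPO3 and AXIN2 lie to the right of 0 and below 0.

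Markers of other cell types differed between the same cultures. In a bulk sample, fewer cells of a type and less RNA per cell cannot be told apart. The summed intensity of 16 mesenchyme markers (the brightest of them the cytoskeletal gene VIM) was 7118 live and 7025 processed in H1 differentiation 1, 11040 and 9792 in differentiation 2, and 8644 and 8482 in HUES8. Without VIM, left out after its values were seen, the sums were 2714 and 2694, 4944 and 4896, and 1665 and 1848, so that H1 differentiation 2 remained the highest culture and HUES8 became the lowest. Of the 13 markers compared, COL1A2, COL3A1 and DCN were at least 2-fold higher in differentiation 2 in both kinds of sample and 0 were lower, and PRRX1 lay under 40 on all arrays. Against both H1 cultures, 4 of the 13 were 2-fold lower in HUES8 and 0 higher, with a median difference of -0.43. COL3A1, a fibrillar collagen gene, had intensities of 235 and 242 in H1 differentiation 1, 1368 and 1272 in differentiation 2 and 133 and 127 in HUES8. It shared its highest culture with RSPO3 and RSPO1 and was lowest in HUES8. COL1A2 (234 and 239, 818 and 872, 296 and 406) and DCN (60.6 and 53.3, 240 and 227, 107 and 95.7) had the same highest culture. Both were lowest in H1 differentiation 1, as RSPO3 and RSPO1 were. COL1A1, PDGFRA and TAGLN were lower in differentiation 2 than in differentiation 1. The sum of 14 hepatic and gut endoderm markers was 24222 and 24877 in H1 differentiation 1, 17606 and 16495 in differentiation 2 and 5359 and 6727 in HUES8. Of the 13 compared, 9 were 2-fold lower in HUES8 than in both H1 cultures and 0 higher, with a median difference of -1.87. TTR (2457 and 3064 in HUES8) and SERPINA1 (2158 and 2692) were the brightest there and were not 2-fold lower. Between the H1 cultures, ALB was 2-fold lower in differentiation 2 and 0 were higher. The sum of 10 neural markers was 5153 and 5086, 3480 and 2934, and 8089 and 5945, highest in HUES8 as SFRP2 and DKK1 were. The brightest of them, TUBB3, was 3924 in the processed sample of H1 differentiation 1 against 3481 in that of HUES8. SOX10 and DCX were highest in H1 differentiation 1. Of the 8 neural markers compared, 1 was 2-fold higher in HUES8 than in both H1 cultures and 0 lower, with a median difference of 0.92. The 15 pancreatic and endocrine markers summed to 31718 and 29925, 27234 and 21769, and 26133 and 24308. CHGA was the brightest of them on every array, while INS was highest in HUES8. Of the 12 compared, SST was 2-fold higher in H1 differentiation 2 than in differentiation 1, and 0 were lower. Against both H1 cultures, PAX6 was 2-fold higher in HUES8 and PDX1 and SOX9 were 2-fold lower, with a median difference of -0.32. The markers of pluripotent cells (9 genes) summed to 3738 and 3360, 4637 and 3843, and 5799 and 4962, with POU5F1, NANOG and TDGF1 under 40 on all arrays. The sum was highest in HUES8 through its brightest genes, SOX2 and LIN28, while of the 6 compared ZFP42 and L1TD1 were 2-fold lower in HUES8 and 0 were higher, with a median difference of -0.37. Of the endothelial and blood markers, 6 of 7 were under 40 on all arrays. The part of any of these cell types in the differences of the WNT regulators was not tested.

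Genes with the most similar profiles were found as those with the smallest root mean square difference between centred log2 values over the 6 samples, which come from 3 cultures. For RSPO1 these were MMRN1, which encodes multimerin (0.28), and DNER (0.36), a transmembrane protein gene with EGF repeats. RSPO3 was closest to STS-1 (0.30) and EFHD1 (0.32). The nearest to SFRP2 were BOC (0.08), a Hedgehog co-receptor gene, and SLC7A1 (0.11), a cationic amino acid transporter gene. DKK1 was closest to SYT11 (0.08) and C17orf75 (0.08), and AXIN2 to VAMP5 (0.12) and C13orf15 (0.12). This measure depends on the size of the differences, and culture means spanned 1.06 for AXIN2 against 2.64 for RSPO3. That they had different neighbours therefore does not show that their order of cultures differed.

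The remaining genes of the pathway were taken as a list of 99, of which 67 were compared. Between the H1 cultures, WNT3A, APCDD1 and NKD1 were at least 2-fold higher in differentiation 2 in live and in processed samples, and FRZB and NKD2 were at least 2-fold lower. These 5 of 67 stand beside the 1.03% higher and 1.23% lower of all genes, and no test was made, since with 1 culture on each side no spread between cultures is left. WNT3A, a ligand of the canonical pathway, had intensities of 472 and 391 in differentiation 1 and 1241 and 913 in differentiation 2, and 1746 and 1819 in HUES8. APCDD1, a membrane inhibitor of WNT signalling, stood at 256 and 223, 726 and 918, and 454 and 418, with the same order of cultures as RSPO3. NKD1, a feedback inhibitor that binds Dishevelled, stood at 252 and 165, 577 and 543, and 786 and 853. Its paralogue NKD2 went the other way between the H1 cultures, with 433 and 454 against 192 and 151, and stood at 452 and 479 in HUES8. Target genes therefore did not share a direction: the 11 compared had a median difference of -0.05 between the H1 cultures. The antagonist gene SOST and the adhesion gene CD44 were above the floor in H1 differentiation 2 only and so did not enter the comparison, at least 1.87-fold and 1.52-fold higher there than in differentiation 1. CER1, another secreted antagonist gene, was likewise above the floor only there, at 68.6 and 56.9. It was at least 1.38-fold higher than in differentiation 1.

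Whether the HUES8 culture differed from the H1 cultures in these other genes was tested on the 3 culture means. The spread came from the 2 H1 cultures, with 1 residual degree of freedom and pooling over genes, and the single HUES8 culture was assumed to vary as they do, so a call compares this culture with those and not the lines. On that basis limma called 4 of the 67, with FZD9 higher and SFRP5, FZD5 and FRZB lower, where 0.49% of all genes were called higher and 1.24% lower. FZD9, a Frizzled receptor gene, had intensities of 120 and 86.7 in H1 differentiation 1, 182 and 123 in differentiation 2 and 613 and 501 in HUES8, 3.98-fold higher than the H1 mean (log2 difference 1.99, 95% interval 1.23 to 2.76, limma adjusted p = 0.00673). SFRP5, a paralogue of SFRP2, stood at 227 and 314, 207 and 279, and, in HUES8, 24.6 in the processed and less in the live sample. It was at least 4.56-fold lower in HUES8, but it passed the filter through its H1 arrays alone, where it was bright, so its call adds nothing to that bound. FZD5, another Frizzled receptor gene, stood at 407 and 598, 305 and 203, and 34.8 and 57.4, at least 5.46-fold lower. Its H1 arrays were enough to pass the filter, and its live HUES8 sample was under 40. The call of FZD5 therefore adds nothing to that bound either. FRZB, which encodes another secreted Frizzled-related protein, stood at 1527 and 1684, 662 and 638, and 253 and 232. It was 3.98-fold lower in HUES8 (log2 difference -1.99, 95% interval -2.93 to -1.05, limma adjusted p = 0.0282), and by -2.63 and -1.35 against H1 differentiations 1 and 2. FRZB was no longer called with an offset of 50, after scaling the arrays to 1 median, after quantile normalization or with a filter on all 6 arrays (adjusted p from 0.0570 to 0.102), and with no filter 0 genes of the list were called.

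The filter of 3 arrays admitted genes bright in H1 only and left out genes bright in HUES8 only. Among the latter, the ligand genes WNT7A and WNT8B and the destruction complex gene APC2 were under 40 in all 4 H1 samples and above it in both HUES8 samples, at least 1.48-fold, 1.32-fold and 1.83-fold higher there, and were not tested. By role, the median difference between HUES8 and H1 was 0.61 for the 10 WNT ligands compared and 0.06 for the 11 target genes. It was 0.14 for the 9 genes of the destruction complex and Dishevelled and -0.31 for the 11 nuclear effectors. Calls in lists this short are not read by role. At an unadjusted p under 0.05 the limma fit held 20 of the 67 genes and 1344 of all. Of the R-spondin module, the ligase genes ZNRF3 and RNF43 were compared and not called, and RSPO4 and LGR6 were under the floor. The receptor and co-receptor genes were all compared, 16 of 16, with FZD9 higher and FZD5 lower as given above. The median difference of the 67 genes was 0.09, against 0.02 over all genes.

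**Figure D4:**
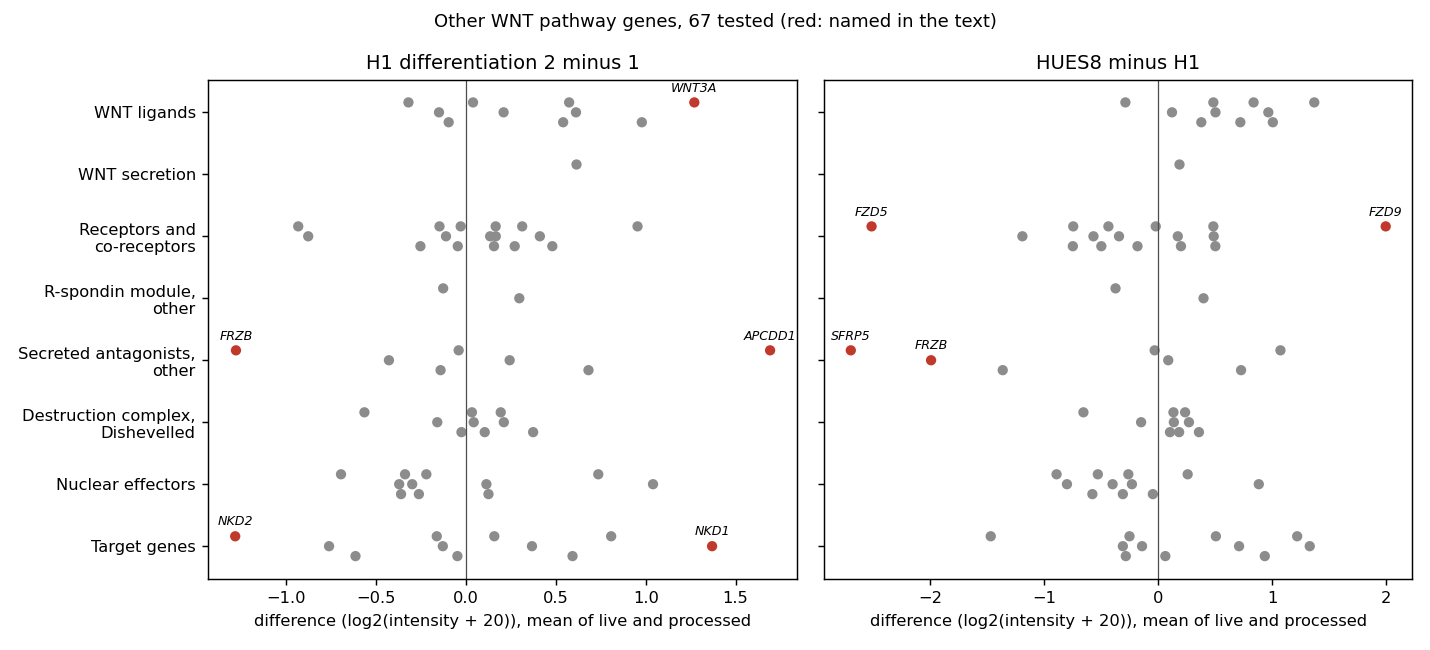
Differences on the log2(intensity + 20) scale, as means over live and processed samples, for the 67 other WNT pathway genes compared, by role, between H1 differentiation 2 and 1 (left) and between HUES8 and the mean of H1 (right). Red points are the genes at least 2-fold apart in both kinds of sample on the left and those called by limma on the right, and most of the list lies between -1 and 1 on both sides.

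Whether fixation, staining and sorting shifted the WNT regulators was tested across the 3 pairs of live and processed samples, a contrast that played no part in the choice of the genes. None of the 8 passed (limma with the differentiation as a block, adjusted p from 0.513 to 0.998), and 0% of all 12653 genes were called. At an unadjusted p under 0.05 there was 1 of the 8, RSPO3, and 9.65% of all genes. The methods' test, unpaired, gave 0 of the 8 at that threshold, and 320 of all 12653 genes. RSPO3 was lower in processed samples in 3 of 3 pairs, by -0.55, -0.02 and -0.47, with a mean of -0.35 ± 0.28 (SD, n = 3 pairs, limma adjusted p = 0.513). Without pair 2 it passed, at -0.51 (limma adjusted p = 0.0429), and it was then the only one of the 8 that did, in a fit that called 5.44% of all genes. Without pair 1 or pair 3, 0 of the 8 passed, where 0.83% and 0.0948% of all genes were called. DKK3 was lower in 3 of 3 pairs as well, with a mean of -0.16 ± 0.08.

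Of the remaining means, those of RSPO1, LGR4, AXIN2 and DKK1 were smaller than the SD over the pairs, and those of SFRP1 and SFRP2 were about as large as it. RSPO1 stood at 0.05 ± 0.46, from 0.40 in pair 2 to -0.48 in the HUES8 pair, and LGR4 at 0.00 ± 0.44. AXIN2 stood at -0.14 ± 0.40, with -0.57 in pair 1 and 0.20 in the HUES8 pair. SFRP1 was at 0.16 ± 0.15, SFRP2 at -0.15 ± 0.15 and DKK1 at -0.08 ± 0.15. The 95% interval was widest for RSPO1, from -0.36 to 0.45, and narrowest for DKK3, from -0.45 to 0.14, and shifts within such intervals were not detectable with 3 pairs.

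**Figure D5:**
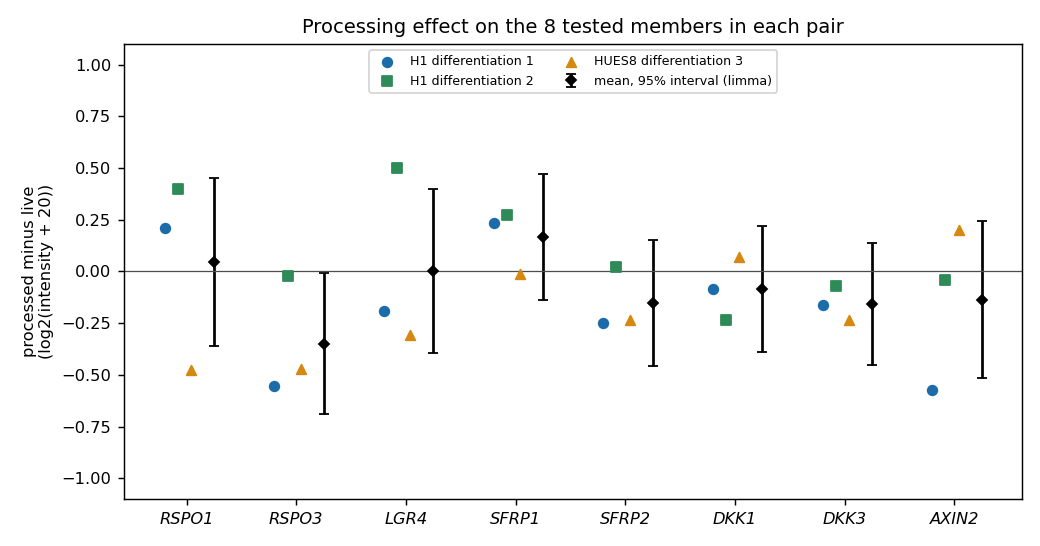
Processed minus live difference on the log2(intensity + 20) scale for the 8 WNT regulators compared, with a coloured symbol for each of the 3 pairs and a black diamond with a 95% limma interval for the mean. All but the RSPO3 interval include 0, and RSPO3 has an unadjusted interval that ends at -0.01.

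The processing effect was also compared between the cultures, as the HUES8 pair against the mean of the H1 pairs. It ranged from -0.78 for RSPO1 to 0.51 for AXIN2, and 0 of the 8 genes were called (limma, adjusted p = 1.00 for each), where 0.261% of all genes were. The -0.78 of RSPO1 rests on the single HUES8 pair, which was assumed to vary as the H1 pairs do. The comparison is thus of these pairs and not of the lines. Of the other 67 pathway genes, 0 were called between processed and live samples (limma, smallest adjusted p = 0.453). At an unadjusted p under 0.05 there were 6, and 2 by the methods' test. Over all 12653 genes these counts were 1221 and 320. The 67 genes had a median difference of 0.05, against -0.03 over all genes. Without pair 2, ROR1 (0.59), RNF43 (0.59), TCF7L2 (0.60) and FZD5 (0.52) passed as higher in processed samples (limma adjusted p from 0.0211 to 0.0403), genes named here after that result was seen. These 4 of 67 lay near the 5.44% of all genes called in that fit.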

How the data were processed

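Total RNA of 6 samples was measured on Illumina Human HT-12 BeadChips. The authors deposited linear intensities, 1 row per symbol, which GenomeStudio had background-subtracted and then normalized by the rank-invariant method. Of these values, 4.37% were below 0. Columns of a further table with 12 signal and detection columns match no sample label and were not used.

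Negative intensities were treated as 0, and log2(intensity + 20) was used, with the offset the study's methods give. Genes at 40 or more on at least 3 arrays (12653, 40.3%) were tested with limma 3.58.1 in R 4.3.3, on all genes together, with Benjamini-Hochberg adjustment and a threshold of 0.05. Processed and live samples were compared with the differentiation as a block, since each culture was split into both. Deviations from the group means correlated at 0.79, 0.62 and 0.81 within pairs. Other pairings were at most at -0.13, which follows in part from the centring, since 3 deviations from their mean sum to 0. The smallest p that exact sign flips of 3 pairs allow is 0.25. HUES8 and H1 were compared on culture means and on within-pair differences. Where arrays lay under 40, folds are bounds with those arrays at 40. The scripts were tested on simulated data.

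Members and lists were chosen with earlier results of these data known. Named beside the members were other pathway genes at least 2-fold apart between the H1 cultures in both kinds of sample, those called for HUES8, and the 2 closest profiles of each member whose culture means span at least 1 log2 unit. The highest and lowest gene of each role by signal, also part of that rule, are left out, since signals of different probes are not comparable. Of the lists, 3 symbols were found under an older name.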

Additional observations from a re-analysis of the deposited data

How the results depend on the processing

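For the 8 members compared, 0 were called between processed and live samples with an offset of 50 or with other filters. None was called with arrays scaled to a common median or after quantile normalization. The same held without the replicate block (0 members and 0 other pathway genes) and by the unpaired t-test. Leaving out 1 pair gave 0 to 1 members and 0 to 4 other pathway genes, the highest counts without pair 2. Over all 12653 genes the same fits called 105, 688 and 12 without pairs 1, 2 and 3. Uncalled means changed sign for DKK1 with arrays scaled to a common median (0.022). Leaving out 1 pair moved RSPO1 from -0.13 to 0.31, LGR4 from -0.25 to 0.16 and AXIN2 from -0.31 to 0.081. The cause was not tested. The 2 members past 2-fold between the H1 cultures and the 2 in HUES8 stayed at 2 to 3 with an offset of 50, both scalings, live or processed samples alone and, for HUES8, without either H1 culture. Other filters were not applied to these counts, and 1 on all 6 arrays would leave out RSPO1. Of the other pathway genes, 4 called for HUES8 became 1 with a filter on all 6 arrays, which removes SFRP5 and FZD5 from the test, and 0 with no filter. The 5 genes apart between the H1 cultures became 8 in processed samples alone, where 1 sample a culture decides. Arrays give no counting error, and the 3 cultures limit the precision.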
